A study of Mus musculus with 6 samples.

Results

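Heat shock proteins, J-domain proteins and the subunits of the CCT chaperonin were followed in mouse keratinocytes in which the microRNA miR-148a had been raised. The genes were chosen by symbol: those that begin with Hspa, Hspb, Hspd, Hspe, Hsph, Hsp90a, Dnaja, Dnajb, Dnajc or Cct and a digit, and Tcp1, without the endoplasmic reticulum (ER) genes Hspa5, Hsp90b1 and Dnajb9. This gave 81 of the 25112 named genes in the authors' deposited table. Hspbp1 and Hspbap1 came in through the spelling of their symbols and are binding proteins rather than heat shock proteins.

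The cells were primary epidermal keratinocytes of wild type C57BL/6 pups aged 1 to 3 days, grown in medium with 0.05 mM calcium, which keeps such cells in a little-differentiated state. One group of 3 libraries came from cells transfected with miR-Control, a control small RNA, and the other group of 3 from cells transfected with pro-miR-148a at 200 nM. The labels give no dose for miR-Control. RNA was taken 48 h after transfection, and the comparison asks which transcripts differ once miR-148a is raised. The labels do not say whether the 3 libraries of a group came from separate cultures or litters, so the p-values may describe technical spread. In the labels the control libraries carry a number from 1 to 3 besides their replicate number, while the pro-miR-148a libraries of replicates 1 and 3 both carry a 1. What that number stands for is not given, so 2 libraries of that group may share a source. The authors' deposited table gives 1 result per RefSeq transcript and no value per library: a base mean (the mean normalized count over the libraries), a log2 fold change with its standard error (SE), and an adjusted p-value. Levels in single libraries and their overlap between groups therefore cannot be shown, and the depth of each library is unknown. Intervals given below are 95% normal intervals made from the authors' SE. In bulk RNA, less RNA per cell and fewer cells of a kind cannot be told apart.

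Chaperones help other proteins fold. HSP70 proteins bind short unfolded stretches and let go of them in a cycle driven by ATP. J-domain proteins (the DNAJ families) bring them clients and start the ATP hydrolysis, and HSP110 proteins exchange the nucleotide. HSP90 acts late, on kinases, steroid receptors and other nearly folded clients. Small HSPs hold unfolding proteins until HSP70 can take them, HSP60 and its lid HSP10 fold proteins inside mitochondria, and CCT is a barrel of related subunits in the cytosol that folds actin and tubulin. Heat shock factors bind repeats of an inverted GAA unit, the heat shock element, in many of these genes.

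The microRNA and its sites are shown first, because the direction of every change below rests on them. The mature microRNA is given with its seed, bases 2 to 8, in capitals, and the sites are windows of 3' untranslated regions (UTRs) in which the capitals pair with the seed. A 7mer-m8 site is the complement of the seed, an 8mer is that site followed by A, and a 7mer-A1 site lacks the first base of the 8mer. The microRNA is from RefSeq (GRCm38.p6, chr6:51269829-51269850, minus strand) and the sites are from the longest 3' UTR of each gene in GENCODE M21 (GRCm38). Sites of changed members are shown, other than that of Dnajc18.
miR-148a-3p: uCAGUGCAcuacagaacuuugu
Hspa4l 8mer, chr3:40790849-40790878, plus strand: acaatgtagtcTGCACTGAaaagagaatag
Hspa4l 7mer-A1, chr3:40789780-40789808, plus strand: tagagccaccaGCACTGAccctttcctag
Dnajb14 first 7mer-m8, chr3:137912886-137912914, plus strand: tagtgttgatgTGCACTGgcctcatttcc
Dnajb14 second 7mer-m8, chr3:137913809-137913837, plus strand: ttcttcctgaaTGCACTGgtattagttat
Hspa1b 7mer-m8, chr17:34956823-34956851, minus strand: gagcagcactgTGCACTGtaccaggggat
Dnajc9 8mer, chr14:20385072-20385101, minus strand: gctgctgtgcaTGCACTGAcgagaaacact
Hspa4 first 7mer-m8, chr11:53261406-53261434, minus strand: cagagatgaagTGCACTGttctctcttca
Hspa4 second 7mer-m8, chr11:53260671-53260699, minus strand: tgtaaagctatTGCACTGcgttgccctgg

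The authors' deposited table does not state the numerator of its fold changes. As deposited, the log2 fold changes had a median of 0.07 over the 1453 tested genes with a 7mer-m8 or 8mer site, and of -0.01 over the 8421 with neither. Since microRNAs lower the transcripts they pair with, the deposited values are read as control over pro-miR-148a, and all signs are turned so that a positive value is higher with miR-148a. The difference between the medians is small, and if the reading were wrong every direction below would turn. It is no separate evidence about the sites of any member.

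In this reading the chaperone genes went both ways. An adjusted p was given for 51 of the 81 genes in the authors' deposited table. With an adjusted p under 0.05 (DESeq2, named in the submitters' processing notes), 11 rose with miR-148a, 6 fell and 34 did not pass the test. That is 33.3% changed, against 33.5% of all 11038 tested genes, of which 16.7% rose and 16.8% fell. The median log2 fold change was 0.06 over the 51 genes and -0.01 over all tested genes. Among the 26 members with a base mean of at least 1000, 8 rose and 5 fell (30.8% and 19.2%), against 31.7% and 24.2% of the 3569 such genes. Of the 17 changed members, 15 moved by less than 1.4-fold. The share of all changed genes under this bound was not counted, so this is no trait particular to the chaperones. The exceptions were Hsp90aa1, which rose 2.34-fold, and Hspa4l, which fell 2.64-fold in the authors' deposited table.

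**Figure D1:**
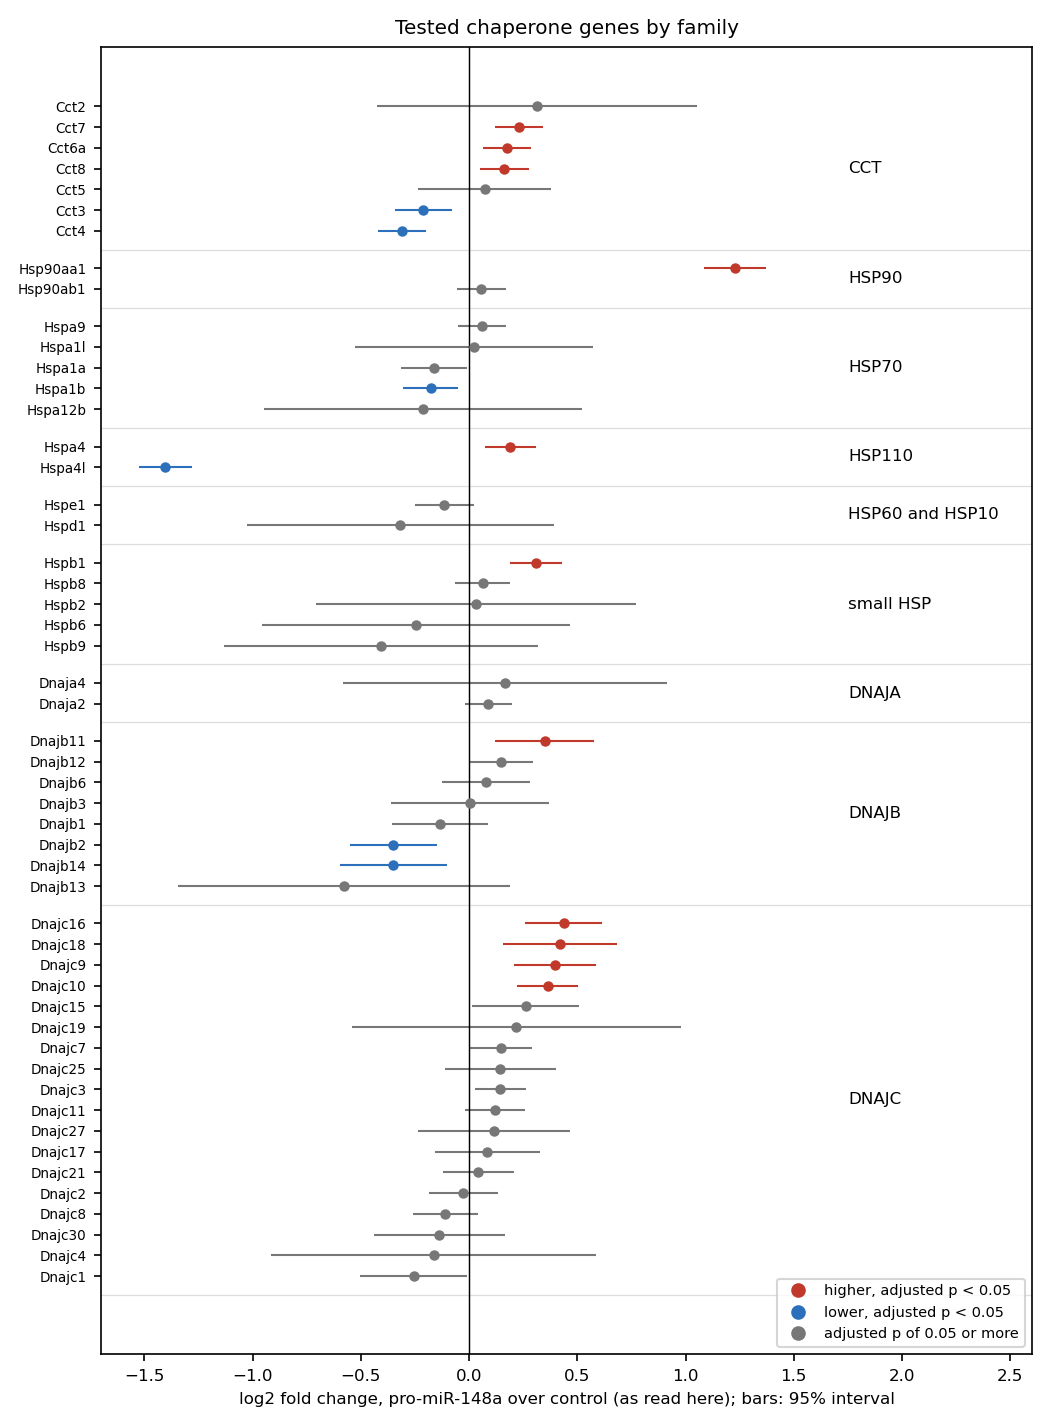
Log2 fold change (pro-miR-148a over control, as read here) of the 51 tested chaperone genes, grouped by family, with bars for the 95% interval from the authors' standard errors; red genes rose, blue genes fell and grey genes did not pass an adjusted p of 0.05. Hsp90aa1 at 1.23 and Hspa4l at -1.40 lie far from the others, and the CCT subunits lie on both sides of 0.

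What the table could measure differed with how many transcripts a gene had in it. The 44 members with 1 listed transcript had a median base mean of 2120, and 38 of them were tested. The 37 members with 2 or more had a median base mean of 1.44 for their most abundant row, and 13 were tested. Of these 37 members, 6 had base means of at least 100, up to 1029 for Dnajb2. Over all genes, 8512 of the 16870 with 1 listed transcript were tested, and 2526 of the 8242 with 2 or more. In all, 61 of the members' 149 transcript rows stood at 0 in the authors' deposited table. Hspa8, the constitutive cytosolic HSP70, had a base mean of only 0.161, the mitochondrial HSP60 gene Hspd1 4.47, the CCT subunit gene Tcp1 1.71, Dnaja1 0.489 and Hsph1 3.07 in the authors' deposited table. These genes have 2 or 3 listed transcripts each. Such values are no measure of how much of the gene was expressed, and these chaperones are in effect not measured here. Among members with 1 listed transcript, 10 rose (26.3%) and 5 fell (13.2%), against 19.7% and 19.5% of all 8512 tested genes with 1 transcript.

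**Figure D2:**
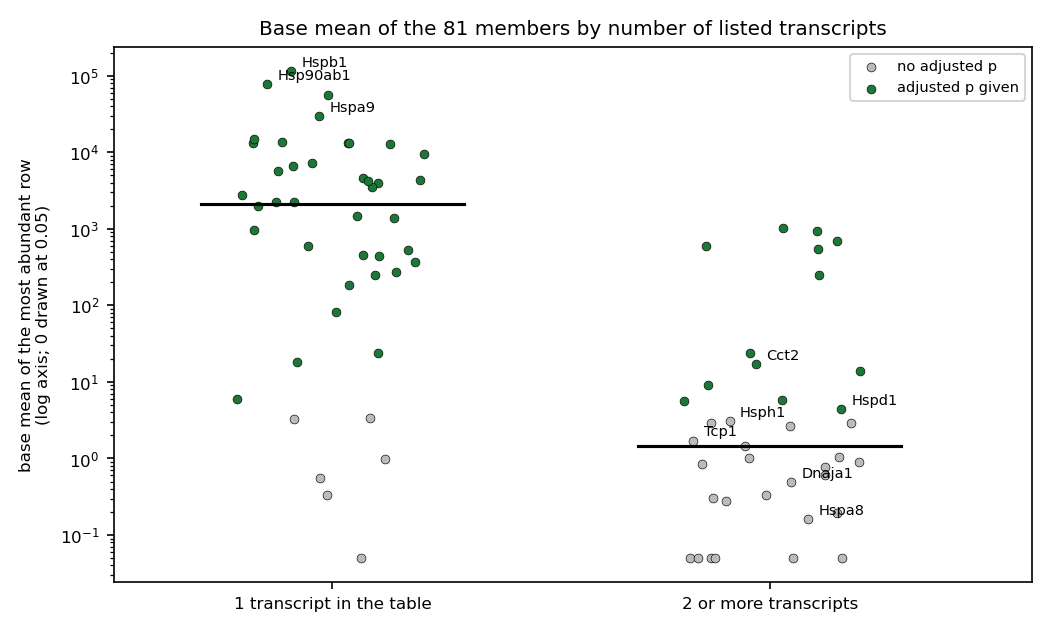
Base mean (log axis, with 0 drawn at 0.05) of the most abundant row of each of the 81 members, for genes with 1 listed transcript and with 2 or more; black lines are the medians, 2120 and 1.44, and green points have an adjusted p. Hspa8, Tcp1 and Dnaja1 lie among the grey points under 3.

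Of the cytosolic HSP90 pair, Hsp90aa1, the stress-inducible form, rose and Hsp90ab1, the constitutive form, did not pass the test. In the authors' deposited table Hsp90aa1 (NM_010480, base mean 56248) had a log2 fold change of 1.23 ± 0.07 SE (interval 1.09 to 1.37, adjusted p = 2.45e-62). Of the 407 tested genes with base means of 10000 or more, 10 had a higher value, and among the 6423 with base means of 100 or more Hsp90aa1 ranked 101st from the highest. Hsp90ab1 (NM_008302, base mean 77597) had a log2 fold change of 0.06 ± 0.06 SE (interval -0.06 to 0.17, adjusted p = 0.522), also from the authors' deposited table. The intervals of the pair do not overlap. Per kilobase of transcript, the mean level over both groups was 17143 normalized counts for Hsp90aa1 and 30793 for Hsp90ab1. Their coding sequences are 76.5% identical.

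**Figure D3:**
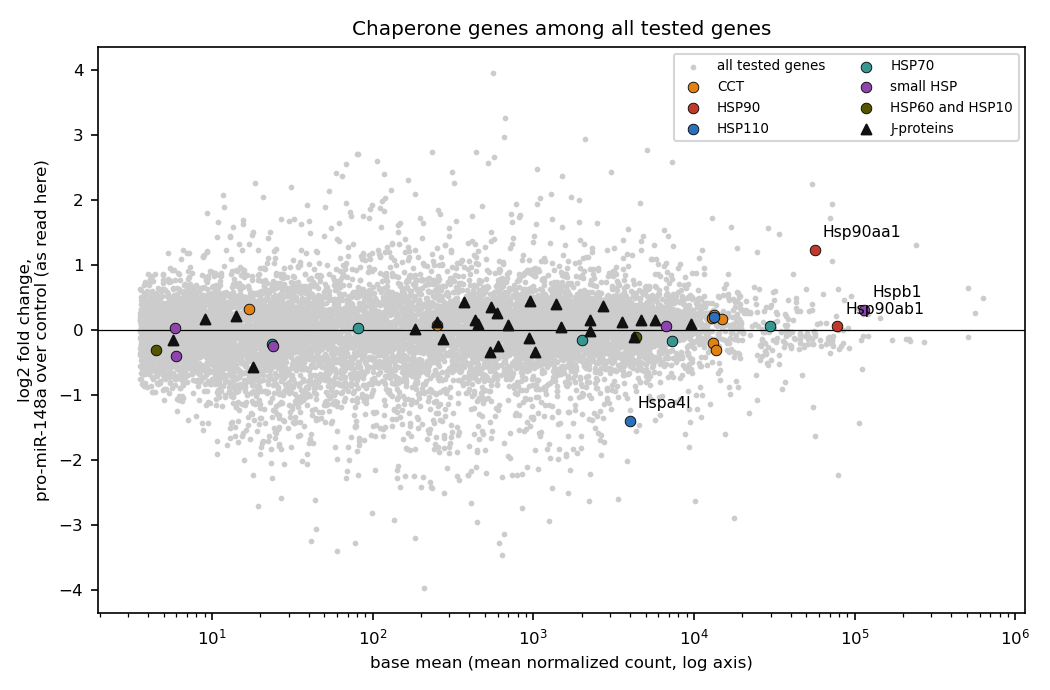
Log2 fold change against base mean (log axis) for all 11038 tested genes in grey, with chaperone families in colour and J-domain proteins as black triangles. Hsp90aa1 stands above the other chaperones and Hspa4l below them, while Hsp90ab1 and Hspb1, which are as abundant as Hsp90aa1 or more so, lie closer to 0.

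The HSP110 genes split. Hspa4l, which encodes a nucleotide exchange factor of HSP70, fell: its log2 fold change was -1.40 ± 0.06 SE (interval -1.53 to -1.28, adjusted p = 4.74e-108, NM_011020, base mean 3970) in the authors' deposited table. It ranked 147th from the lowest of the same 6423 genes. Its longest UTR of 6714 bases holds an 8mer and a 7mer-A1 site, as shown above. Its relative Hspa4 rose 1.14-fold in the authors' deposited table (0.19 ± 0.06 SE, adjusted p = 0.00669, base mean 13289), although its UTR holds a pair of 7mer-m8 sites. After all fold changes were recentred on the median of abundant genes (base mean 1000 or more), which was 0.05, Hspa4 no longer passed (adjusted p = 0.0507, Wald test made again with Benjamini-Hochberg adjustment). The coding sequences of Hspa4 and Hspa4l are 69.2% identical.

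None of the 5 tested HSP70 genes rose by the authors' DESeq2 test, and 0 were higher at an unadjusted p under 0.05. Over all tested genes 16.7% rose and 16.8% fell, and 5 genes are too few to set against these shares. The heat-inducible Hspa1b (base mean 7300) fell 1.13-fold in the authors' deposited table (-0.18 ± 0.07 SE on the log2 scale, adjusted p = 0.0240). Its neighbour Hspa1a, at -0.16 ± 0.08 SE (base mean 1999), missed the threshold in the authors' deposited table (adjusted p = 0.0971). The coding sequences of this pair are 99.5% identical, so reads may have been split between them and neither value is certain. In addition, 564 exonic bases of Hspa1a (19.0%) lie under Gm20481 on the opposite strand. Hspa9, the mitochondrial HSP70, had a log2 fold change of 0.06 ± 0.06 SE (interval -0.05 to 0.17, base mean 29917) and did not pass in the authors' deposited table. The remaining Hspa1l and Hspa12b had base means of 80.7 and 23.8 and wide intervals.

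Of the mitochondrial folding pair only the lid was well measured. Hspe1 (HSP10) had a log2 fold change of -0.12 ± 0.07 SE (interval -0.25 to 0.02, adjusted p = 0.217, base mean 4376), from the authors' deposited table. The interval of Hspd1 (HSP60) reached from -1.02 to 0.39.

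Among small HSPs, Hspb1, the HSP27 gene, which is abundant in epidermis, rose 1.24-fold in the authors' deposited table (log2 fold change 0.31 ± 0.06 SE, adjusted p = 3.9e-06, base mean 114010). It had the highest base mean of the 81 genes, and also the highest level per kilobase of those with a known transcript length. Hspb8, which works with Bag3 in the autophagy of misfolded proteins, had a log2 fold change of 0.06 ± 0.06 SE (interval -0.06 to 0.19, base mean 6706) and did not pass in the authors' deposited table. Hspb2, Hspb6 and Hspb9 had base means of 5.87, 24.1 and 5.99 and did not pass. Hspb7 had no adjusted p, and Hspb3 was listed at 0 in the authors' deposited table.

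The subunits of the CCT barrel, which assemble into 1 complex, moved in both directions. Of the 7 tested genes 3 rose (42.9%) and 2 fell (28.6%). The shares were 16.7% and 16.8% over all tested genes, and 31.7% and 24.2% among those with base means of 1000 or more. The group is small. In the authors' deposited table Cct7 (log2 fold change 0.23 ± 0.06 SE, adjusted p = 0.000302), Cct6a (0.17 ± 0.06 SE, adjusted p = 0.00957) and Cct8 (0.16 ± 0.06 SE, adjusted p = 0.0197) rose. In the same deposited table of the authors, Cct4 (-0.31 ± 0.06 SE, adjusted p = 4.73e-07) and Cct3 (-0.21 ± 0.07 SE, adjusted p = 0.00772) fell. The 5 genes had close base means, from 12948 for Cct6a to 14926 for Cct8. Per kilobase the mean level was 6634 normalized counts for Cct3, 5544 for Cct4, 5437 for Cct7 and 6235 for Cct8. The intervals of the genes that rose start at 0.12 for Cct7, 0.06 for Cct6a and 0.05 for Cct8. Those of the genes that fell end at -0.20 for Cct4 and -0.08 for Cct3. Genes that pass have intervals that leave out 0, so this separation follows from the calls and is no further evidence. The rises were no larger than 1.17-fold and depended on the scale. After recentring on abundant genes, Cct7 alone rose, and Cct6a (adjusted p = 0.0720) and Cct8 (adjusted p = 0.118) no longer passed in the Wald test with Benjamini-Hochberg adjustment. Cct3 and Cct4 fell on each scale tried. Exons of Cct6a, Cct7 and Cct8 share 452, 214 and 192 bases with Psph, Pradc1 and Usp16 on the opposite strand, and no source used here states whether the counting used strand. Cct2 and Cct5, each with 2 listed transcripts, had base means of 17.1 and 252, log2 fold changes of 0.31 ± 0.38 SE and 0.07 ± 0.16 SE, and did not pass in the authors' deposited table. Cct6b was listed at 0 there, and Cct8l1 and Tcp1 had no adjusted p.

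J-domain proteins form the largest set, with 44 genes, of which 28 were tested. Of these 5 rose (17.9%), 2 fell (7.14%) and 21 did not pass, against 16.7% and 16.8% of all tested genes, so the share that rose was near the background. In the authors' deposited table Dnajc16, a J-domain protein of the ER membrane, had the highest value (log2 fold change 0.44 ± 0.09 SE, adjusted p = 1.22e-05, base mean 953). Dnajc18, also of the ER membrane, rose 1.34-fold (0.42 ± 0.13 SE, adjusted p = 0.00754, base mean 368). Dnajc9, which also acts as a histone chaperone, rose 1.31-fold (0.39 ± 0.10 SE, adjusted p = 0.00026, base mean 1387) in the authors' deposited table. Dnajc10, an ER protein that reduces disulfide bonds, rose 1.29-fold (0.36 ± 0.07 SE, adjusted p = 2.74e-06, base mean 2732). Dnajb11, a J-domain partner of the ER HSP70 in the lumen, rose 1.27-fold (0.35 ± 0.12 SE, adjusted p = 0.0119, base mean 545) in the authors' deposited table. This value is from the most abundant of its 3 listed transcripts, and the others were listed at 0.

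Both J-domain genes that fell belong to the DNAJB class. Dnajb14, an ER membrane protein, fell 1.28-fold (-0.35 ± 0.13 SE on the log2 scale, adjusted p = 0.0203, base mean 535) in the authors' deposited table, and its UTR of 8088 bases holds the pair of 7mer-m8 sites shown above. Its relative Dnajb12, with coding sequence 63.5% identical, had a log2 fold change of 0.15 ± 0.07 SE and did not pass (adjusted p = 0.113) in the authors' deposited table. Dnajb2, which also binds ubiquitin, fell 1.27-fold (-0.35 ± 0.10 SE, adjusted p = 0.00321, base mean 1029) in its most abundant of 5 listed transcripts.

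The J-domain genes with the highest base means did not pass the test. Dnaja2, a general cytosolic partner of HSP70, had a log2 fold change of 0.09 ± 0.05 SE (adjusted p = 0.236, base mean 9577) in the authors' deposited table, and Dnaja4, at a base mean of 9.07, had 0.16 ± 0.38 SE. Dnajc3, an ER lumen protein, lay just past the threshold, with 0.14 ± 0.06 SE (adjusted p = 0.0535, base mean 5703). Dnajc7, a J-domain protein with repeats that bind HSP70 and HSP90, had 0.15 ± 0.07 SE (adjusted p = 0.111, base mean 4658), from the authors' deposited table. The heat-inducible Dnajb1 had a log2 fold change of -0.13 ± 0.11 SE (adjusted p = 0.426, base mean 933). Dnajb6 showed how far rows of 1 gene could differ in the authors' deposited table. Its most abundant row, NM_001037940 (base mean 697), had a log2 fold change of 0.08 ± 0.10 SE, while its noncoding row NR_152863 (base mean 95.8) had one of -1.07 ± 0.27 SE (adjusted p = 0.000421), and the other 4 were listed at 0. The J-domain genes of mitochondria that were tested, Dnajc4, Dnajc11, Dnajc15, Dnajc19 and Dnajc30, did not pass. They are too few to set against the 16.7% that rose and 16.8% that fell over all tested genes. Dnajc4 and Dnajc19 had base means of only 5.69 and 14.0, with SEs of 0.38 and 0.39. Dnajc11 had a log2 fold change of 0.12 ± 0.07 SE, Dnajc15 0.26 ± 0.13 SE and Dnajc30 -0.14 ± 0.15 SE.

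Members with a miR-148a site went both ways too. Of the 14 tested members with a 7mer or 8mer site, 3 fell (Hspa4l, Dnajb14 and Hspa1b), 3 rose (Dnajc9, Hspa4 and Dnajc18) and 8 did not pass. Most of them, 11 of the 14, have a 7mer-m8 site and no 8mer, and of these 2 fell and 2 rose. Dnajc9 rose with an 8mer of the same kind as that of Hspa4l. Over all tested genes, 29.3% of the 406 with an 8mer were lower and 11.6% higher, against 19.7% and 15.9% of the 1047 whose best site was a 7mer-m8 and 22.6% and 15.2% of the 650 with a 7mer-A1. For the 6255 genes without any site the shares were 16.1% and 19.0%. The signs were turned so that genes with a 7mer-m8 or 8mer site would be lower, so these shares restate that choice and do not bear on whether the reading is right.

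Heat shock elements were looked for in the RefSeq promoters (GRCm38.p6, 250 bases before to 50 after the start), which matched 66 of the 81 genes. The pattern GAANNTTC, which reads the same on both strands, was in 16 of these (24.2%), against 9.04% of all 27025 genes with a promoter. A longer pattern, in which another inverted GAA unit follows after NN on either side, contains it and was in 4 members (6.06%) and in 0.662% of all genes. Of the 11 tested members with GAANNTTC, Hspb1 rose, Hspa1b fell and 9 did not pass. Over all tested genes 16.7% rose and 16.8% fell, and 11 genes are too few to set against these shares. Among the 9, Cct2, Dnaja4, Hspb6 and Hspd1 had base means of only 17.1, 9.07, 24.1 and 4.47. The elements of members with a base mean over 500 that start before the gene are shown in capitals, to let the letters be set beside these values. Hspe1 and Hspd1 are transcribed away from each other, and the element of Hspe1 is also that of Hspd1 on the other strand.
Hspb1 far element, chr5:135887796-135887815, plus strand: acaagaGAAGTTTCcagatg
Hspb1 near element, chr5:135887816-135887835, plus strand: ggggcaGAACCTTCctggcc
Hspa1b, chr17:34959329-34959348, minus strand: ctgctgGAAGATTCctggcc
Hspa1a, chr17:34972247-34972266, minus strand: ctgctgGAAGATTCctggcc
Hspe1, chr1:55088053-55088082, plus strand: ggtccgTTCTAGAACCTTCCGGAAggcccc
Dnajb6, chr5:29735846-29735870, plus strand: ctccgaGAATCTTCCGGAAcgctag

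The windows of Hspa1a and Hspa1b are identical in the 20 bases shown. Their log2 fold changes of -0.16 and -0.18 lay on the other side of 0 from that of Hspb1, at 0.31. Hspe1 and Dnajb6, which hold the longer pattern, had -0.12 and 0.08. A match of letters is no evidence that a factor was bound, and Hsp90aa1 was not among the matched promoters.

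Regulators and partners of these chaperones were counted in the same way. Their counts stand against 16.7% higher and 16.8% lower over all tested genes, or 31.7% and 24.2% among those with base means of 1000 or more, and the lists are small. Of the 3 tested heat shock factor genes and regulators, 2 fell and 1 did not pass. Hsf2, a heat shock factor, had a log2 fold change of -0.52 ± 0.10 SE (adjusted p = 1.29e-06, base mean 989), and Hsbp1l1, named for its likeness to the factor-binding protein gene Hsbp1, had -1.22 ± 0.15 SE (base mean 410) in the authors' deposited table. All 7 rows of Hsf1, the main factor of the heat shock response, were listed at 0. Of 14 tested HSP90 co-chaperones 5 rose, 1 fell and 8 did not pass. In the authors' deposited table Nudc (0.38 ± 0.08 SE) and Stip1, which links HSP70 to HSP90 (0.30 ± 0.06 SE, adjusted p = 7.2e-06), rose, and Unc45a, which serves myosin folding, fell (-0.50 ± 0.06 SE, adjusted p = 2.57e-15). None of the 5 tested HSP70 co-chaperones passed the authors' DESeq2 test, also at an unadjusted p under 0.05 (0 genes), among them St13 (0.03 ± 0.06 SE) and Bag3 (-0.10 ± 0.07 SE) in the authors' deposited table.

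Prefoldin, which hands clients to CCT, and the CCT co-chaperones held 10 tested genes, of which 2 rose and 2 fell (20% each), near the shares over all tested genes. In the authors' deposited table Pdcl had a log2 fold change of 0.30 ± 0.09 SE (adjusted p = 0.00427), Pfdn5 -0.26 ± 0.08 SE (adjusted p = 0.00317) and Pdcl3 -0.21 ± 0.08 SE (adjusted p = 0.0292). Of 8 tested mitochondrial chaperones and proteases 4 rose and none fell in the authors' DESeq2 test, led by the proteases Clpp (0.42 ± 0.08 SE), Afg3l2 (0.22 ± 0.06 SE) and Yme1l1 (0.21 ± 0.07 SE) in the authors' deposited table. Grpel1, the exchange factor of the mitochondrial HSP70, had -0.15 ± 0.07 SE (adjusted p = 0.0998), was the 1 gene of this list lower at an unadjusted p under 0.05, and fell after recentring on abundant genes. Of 11 tested ER chaperones 6 rose (54.5%), 3 fell (27.3%) and 2 did not pass; all 11 had base means over 1000, where 31.7% of genes rose and 24.2% fell. Hyou1, the ER relative of HSP110, rose most (0.43 ± 0.06 SE, adjusted p = 2.26e-12), with Sdf2l1 (0.40 ± 0.10 SE) and the ER HSP90 gene Hsp90b1 (0.33 ± 0.06 SE, adjusted p = 6.1e-08), and Dnajb9 fell (-0.25 ± 0.07 SE, adjusted p = 0.00377), from the authors' deposited table. Hspa5, with 2 listed transcripts, was listed at 0. The authors' deposited table of gene ontology categories holds protein folding with 1 gene, counted as changed. The authors' over-representation test gave that category an unadjusted p of 0.241, which did not pass.

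**Figure D4:**
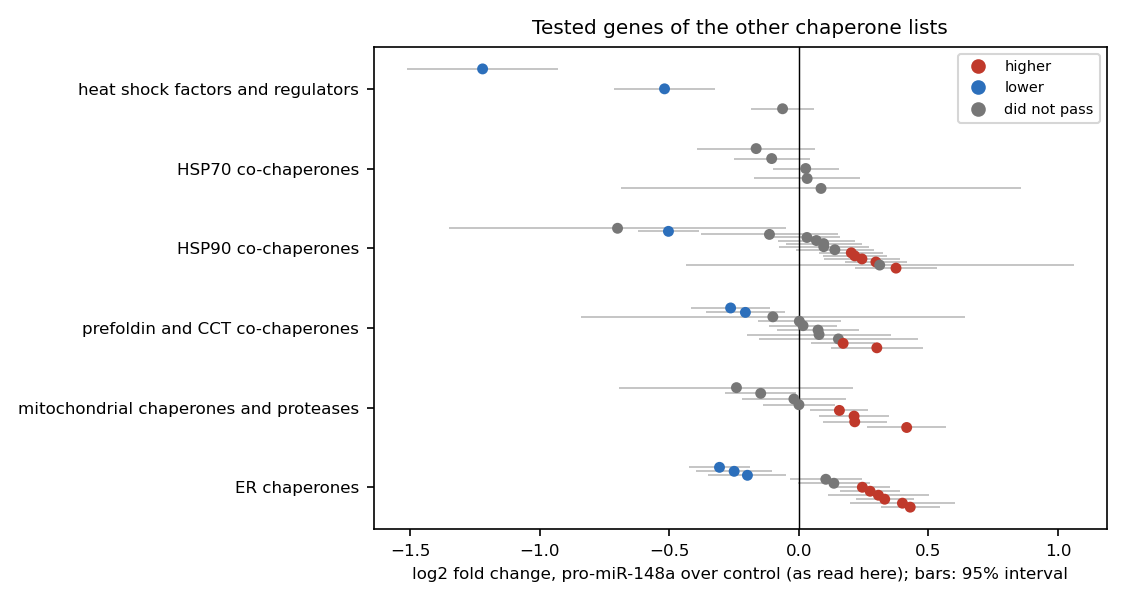
Log2 fold change (pro-miR-148a over control, as read here) of the tested genes of 6 other lists of chaperones, co-chaperones and regulators, with bars for the 95% interval; red rose, blue fell and grey did not pass. The HSP70 co-chaperones hold no called gene, and Hsbp1l1 at -1.22 is the lowest of the lists.

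The cells' label was checked on marker genes in the authors' deposited table. The basal keratin gene Krt5, at 630448, had the highest base mean of all genes, while Trp63, with 8 listed transcripts, was listed at 0. Fibroblast and melanocyte markers were counted too, with base means of 11119 for Col1a1 and 8101 for Pmel. In the same lists Col1a2 had 6096, Col3a1 4995 and Dct 6493, while Thy1 had 549, Mlana 389 and Lum 75.6. Pdgfra, Dcn, Mitf, Tyr and Tyrp1, each with 2 or more listed transcripts, had at most 19.3. Such values are no measure of how much of these genes was expressed. The keratin genes Krt1 and Krt10 had 6172 and 2136. Of 7 tested keratinocyte markers 1 rose, 3 fell and 3 did not pass. Krt5 rose (log2 fold change 0.49 ± 0.06 SE, adjusted p = 1.9e-13), and the keratin genes of differentiating layers fell, Krt1 by 1.32 ± 0.18 SE (adjusted p = 3.47e-12) and Krt10 by 0.88 ± 0.12 SE (adjusted p = 1.32e-12) on the log2 scale in the authors' deposited table. The desmosomal cadherin gene Dsg3 also fell, by 0.39 ± 0.06 SE on that scale. Of 7 tested fibroblast markers 4 fell and 3 did not pass (log2 fold changes from -0.85 for Thy1 to -0.13 for Lum), and of 3 tested immune markers 2 fell (Lyz2 -2.63 and C1qa -2.72, with base means of 43.8 and 19.4). Of 4 tested melanocyte markers 1 fell, and of 2 endothelial markers Kdr rose and Vwf fell. All these marker counts stand against 16.7% higher and 16.8% lower over all tested genes, and the lists are small. The part of these marker changes in the chaperone results was not tested.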

How the data were processed

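The authors deposited 1 comparison of the 2 groups (3 libraries each), per the labels. The submitters' processing notes name DESeq2 and mm9 without saying how they were used. No source used here names an aligner, a read counter or the annotation. For each transcript the authors' table lists, per the file headers, its base mean (a normalized signal), a log2 fold change, the standard error, a Wald score, and raw and adjusted p-values; their gene ontology table holds p-values and the number of changed and of all genes per category. No count per library was used, so no model was fitted, depth is unknown and the authors' adjusted p at 0.05 stands for a test. The SE reached at most 0.39, also for rarely counted transcripts, so their fold changes may be shrunk toward 0.

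RefSeq accessions were paired with symbols (42739 of 42885 matched, GRCm38.p6), and each gene was taken by its row with the highest base mean. Lists and members were chosen with earlier results of these data known. Any member could be named; CCT subunits, changed members and the 2 most abundant of each family were given values, and of other lists up to 3 changed genes. Lyz2, C1qa, Thy1, Lum, Col1a1, Pmel, Mitf, Kdr, Vwf, Dsg3, Trp63, Dnajb9, Grpel1, Hsf1 and the second row of Dnajb6 were named after their values were seen. So were Col1a2, Col3a1, Pdgfra, Dcn, Dct, Mlana, Tyr, Tyrp1, Krt14, Itga6 and Perp. The values of the mitochondrial J-domain genes were also given after they were seen. Transcript lengths, UTRs and exon overlaps (at least 100 bases) came from GENCODE M21. The Wald test recentred on all tested genes was tried on simulated data, and recentring on abundant genes was not. Python 3.11.15, pandas 2.3.3 and scipy 1.17.1 were used.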

Additional observations from a re-analysis of the deposited data

How the results depend on the processing

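The counts of 11 members that rose and 6 that fell ranged from 8 to 12 and from 4 to 7 over the alternatives run (adjusted p of 0.01, base mean of at least 100, no filter, recentring on all tested genes or on abundant ones with a base mean of 1000 or more, genes with 1 transcript, and the transcript with the smallest p); recentring on abundant genes and the restriction to genes with 1 transcript were chosen after seeing the data. At an adjusted p of 0.01, HSP70 genes lower numbered 0, DNAJB genes higher 0 and lower 1, and prefoldin and CCT co-chaperones higher 1 and lower 1; the adjusted p of Cct8, Dnajb11, Dnajb14 and Hspa1b lie between these thresholds. Recentring on abundant genes left CCT genes higher at 1, HSP70 genes lower at 2, HSP110 genes higher at 0, prefoldin and CCT co-chaperones higher at 1 and mitochondrial chaperones lower at 1, by construction a shift of 0.05. With genes of 1 transcript, DNAJB genes higher numbered 0 and lower 1. Dnajc3 passed with a base mean of at least 100 (adjusted p = 0.0346) and after recentring on all tested genes (0.0344). No member that passed the test in the main setting changed sign. With the transcript of smallest p, Dnajb6 went from 0.08, which did not pass, to -1.07 (authors' DESeq2 adjusted p = 0.000421). DNAJB genes lower then numbered 3. Dnaja4, which passed on neither setting, went from 0.16 to -0.32 (adjusted p = 0.537) with its transcript of smallest p. No paired analysis was possible because the table has no column per library, and for the same reason no library could be left out. Precision follows abundance: the median SE was 0.07 for abundant members and 0.38 for tested members under 100.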
